A study of Mus musculus with 78 samples.

Results

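The genes described here are 10 components of the circadian clock: Arntl, Npas2, Clock, Nfil3, Cry1, Dbp, Nr1d2, Per2, Per3 and Ciart. They were chosen by their log2 values over time in these same arrays, so their change between times is given as a description with no test. Each gene was represented by the probe set, among those annotated to its symbol alone, with the highest mean over all 78 arrays. They are 10 of the 17097 genes with such a probe set, and 10 of 10 were among the 11341 genes tested, which lay above the median of the array on at least 4 arrays.

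The arrays carried endothelium-enriched RNA from the carotid arteries of 39 mice. In each mouse the left common carotid artery (LCA) had been partially ligated, an operation that lowers and disturbs blood flow in that vessel, and the right common carotid artery (RCA) served as the control. Mice were given atorvastatin, a statin that lowers cholesterol, at 10 mg/kg/day or vehicle by mouth from before surgery onward. RNA was collected 12 h, 24 h, 48 h or 2 weeks after surgery, with 5 mice in each treatment and time except atorvastatin at 48 h, which had 4. The 16 groups are therefore the LCA and the RCA with atorvastatin or vehicle at each of the 4 times. Every mouse had been operated on, so the RCA is the unligated vessel of an operated animal, and strain, age, sex, genotype and the hour of day at collection are not given in the labels.

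Mammalian cells keep daily time with a transcriptional loop. Arntl (also called Bmal1) pairs with Clock or its relative Npas2 and switches on genes through E-boxes, among them the Per and Cry genes, whose proteins return to inhibit that pair. Nr1d2 (Rev-erb beta) represses Arntl and Nfil3 through ROR elements, and Dbp activates, and Nfil3 represses, genes through the same D-boxes. Endothelial cells hold such a clock, and genes of the Arntl side normally peak when genes of the Dbp and Per side are low.

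The 5 promoters printed here show the 3 kinds of site that couple these genes. RefSeq promoter windows of GRCm38.p6, from 250 bases before to 50 bases after a transcription start, were present for 9 of the 10 genes, and Per2 was the other. The E-box was searched as CACGTG. The D-box that Dbp and Nfil3 share was searched as TTATGTAA. The core of the ROR element was searched as TAGGTCA. Both strands were searched, no match overlapped another, and capitals mark each match; the one of Nfil3 is read on the other strand.
Ciart promoter, E-boxes, chr3:95882179-95882478, minus strand: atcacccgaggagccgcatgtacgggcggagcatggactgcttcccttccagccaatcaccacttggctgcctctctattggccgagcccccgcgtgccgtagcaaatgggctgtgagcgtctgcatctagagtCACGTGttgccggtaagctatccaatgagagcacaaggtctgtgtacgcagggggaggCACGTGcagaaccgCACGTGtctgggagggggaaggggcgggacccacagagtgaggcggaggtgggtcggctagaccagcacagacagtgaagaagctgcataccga
Cry1 promoter, E-box, chr10:85185005-85185304, minus strand: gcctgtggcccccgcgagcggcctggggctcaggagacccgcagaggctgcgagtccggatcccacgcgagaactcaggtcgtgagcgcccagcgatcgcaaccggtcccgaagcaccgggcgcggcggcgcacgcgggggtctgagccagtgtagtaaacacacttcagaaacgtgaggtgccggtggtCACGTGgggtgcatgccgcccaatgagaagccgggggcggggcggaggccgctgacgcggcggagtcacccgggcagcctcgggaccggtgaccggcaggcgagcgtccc
Per3 promoter, D-boxes, chr4:151044616-151044915, minus strand: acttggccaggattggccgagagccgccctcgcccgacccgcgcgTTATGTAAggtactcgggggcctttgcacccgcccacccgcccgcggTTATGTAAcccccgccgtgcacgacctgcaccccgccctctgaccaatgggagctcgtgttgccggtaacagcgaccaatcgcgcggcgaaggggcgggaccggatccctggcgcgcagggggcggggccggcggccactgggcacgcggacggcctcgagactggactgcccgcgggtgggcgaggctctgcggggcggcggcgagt
Arntl promoter, ROR element core, chr7:113207261-113207560, plus strand: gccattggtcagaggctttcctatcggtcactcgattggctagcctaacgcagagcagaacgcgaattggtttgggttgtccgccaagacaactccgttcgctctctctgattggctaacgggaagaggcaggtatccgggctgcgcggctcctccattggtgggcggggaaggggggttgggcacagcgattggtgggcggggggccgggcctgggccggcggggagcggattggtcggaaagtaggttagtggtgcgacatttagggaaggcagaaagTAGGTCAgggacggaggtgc
Nfil3 promoter, ROR element core, chr13:52980990-52981289, minus strand: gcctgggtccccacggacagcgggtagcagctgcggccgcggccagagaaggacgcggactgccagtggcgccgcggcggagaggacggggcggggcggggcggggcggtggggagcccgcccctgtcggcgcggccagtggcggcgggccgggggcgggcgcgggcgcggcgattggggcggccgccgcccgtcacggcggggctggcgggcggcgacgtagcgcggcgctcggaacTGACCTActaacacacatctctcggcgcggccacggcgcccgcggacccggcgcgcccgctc
The Ciart window held 3 E-boxes and the Cry1 window 1, against 7.15% of the 32851 mouse promoter windows that held at least 1. The Per3 window held 2 D-boxes, a motif present in 0.94% of windows. One of the Arntl windows and the Nfil3 window each held 1 ROR element core, present in 2.61% of windows. The windows of the other 4 genes, Npas2, Clock, Dbp and Nr1d2, held none of these letters. A match is a description of the sequence only.

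Values are RMA log2 intensities, so a difference of 1 is a 2-fold difference, and levels are compared within a gene and never between genes. Array medians lay between 4.59 and 4.77. Arntl exceeded the array median on 23 arrays, Ciart on 21, Npas2 on 51, Dbp on 66 and Per2 on 73, so that the low values of these genes are close to background. Endothelial markers were high in each artery, with array means of the 8-gene list from 9.24 to 10.00 in LCA and from 9.0 to 9.87 in RCA. Replicates 1 to 5 were vehicle mice and 6 to 10 atorvastatin mice, and the number joins the LCA and the RCA of 1 animal.

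**Figure D1:**
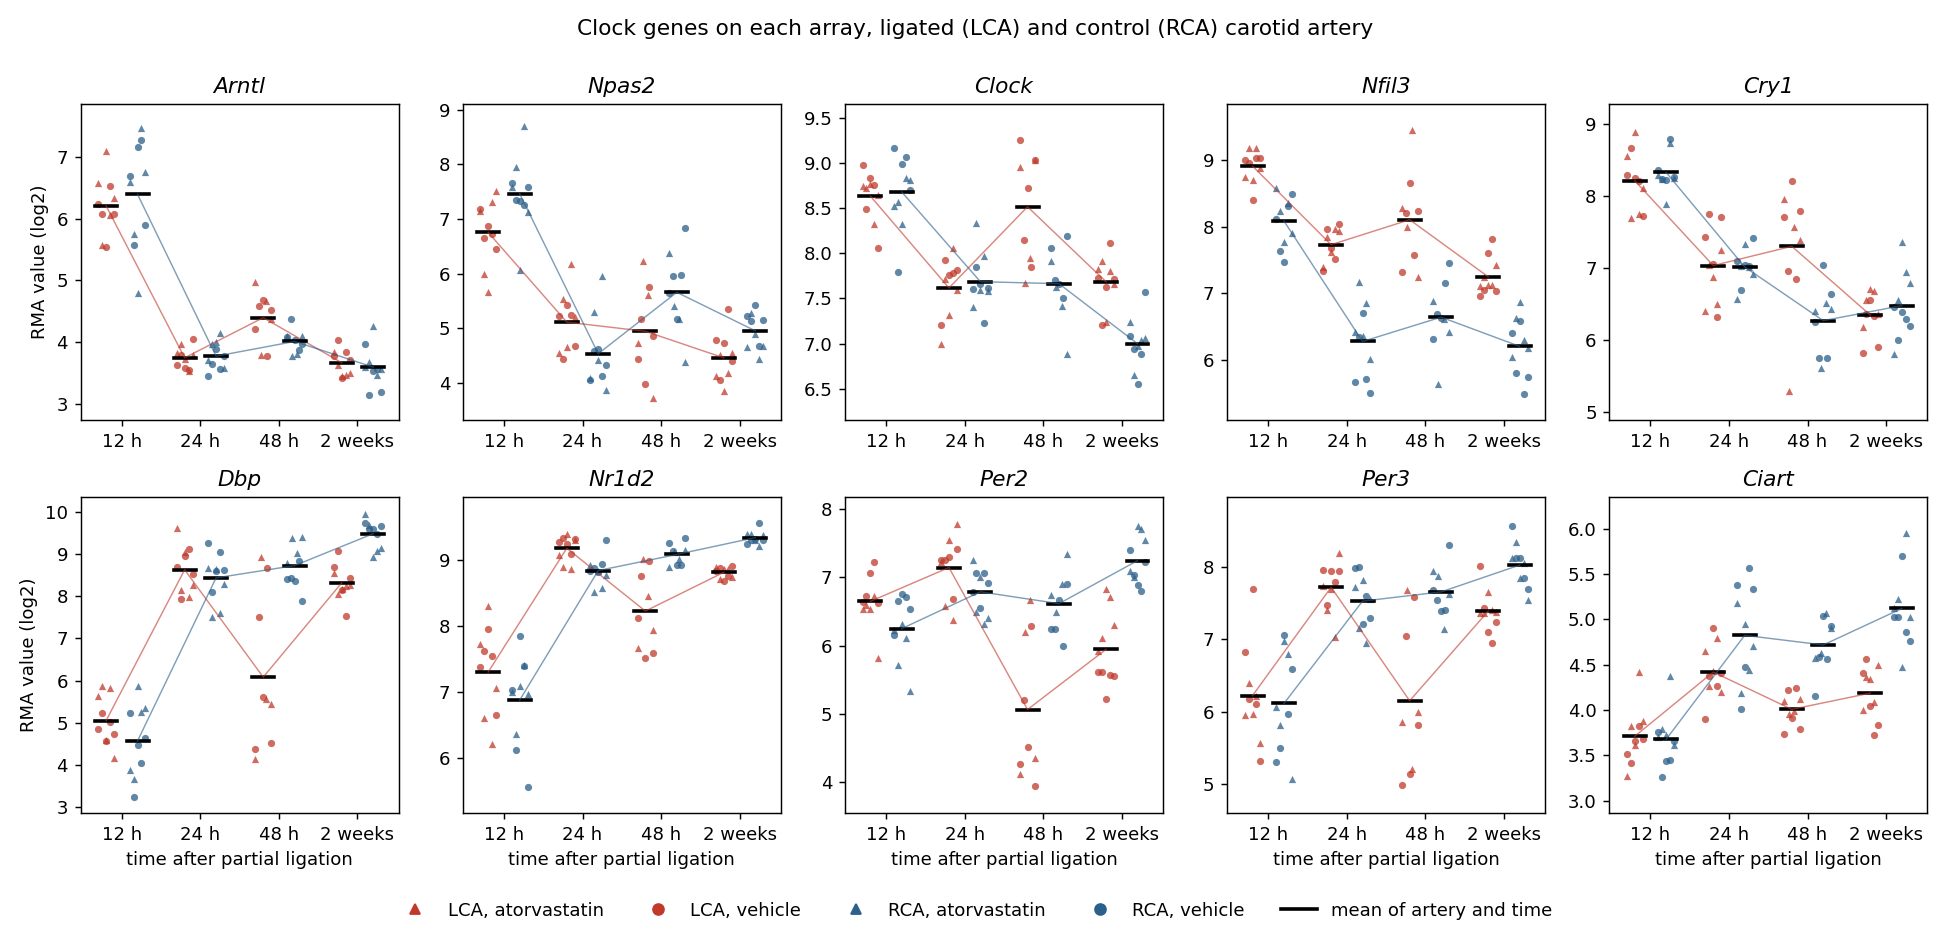
Each point is 1 array, with its RMA value (log2) on the vertical axis and time after surgery on the horizontal axis; LCA is red and RCA blue, triangles are atorvastatin and circles vehicle, and black bars are means of 10 arrays (9 at 48 h). Dbp lay between 3.25 and 5.87 at 12 h in both arteries and above 7.5 at 24 h, and at 48 h the LCA points spread from 4.13 to 8.93.

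The widest change belonged to Dbp, a transcription factor that activates D-box genes and is a direct output of the clock. At 12 h, Dbp was 5.63, 5.87, 4.60, 5.83 and 4.16 in the LCA of atorvastatin mice and 3.88, 3.67, 5.87, 5.26 and 5.36 in their RCA. In vehicle mice at 12 h it was 4.85, 5.24, 4.56, 5.01 and 4.73 in LCA and 5.22, 3.25, 4.48, 4.05 and 4.63 in RCA. At 24 h, the LCA of atorvastatin mice had 9.61, 8.15, 9.05, 7.99 and 8.27, and their RCA 8.66, 7.51, 8.65, 7.60 and 8.28. In vehicle mice at 24 h it was 8.68, 7.92, 8.95, 9.11 and 8.52 in LCA and 9.27, 8.10, 8.59, 9.04 and 8.62 in RCA. Each array at 24 h therefore lay above each array at 12 h in both arteries. The mean over treatments was higher at 24 h than at 12 h by 3.57 ± 0.45 log2 units in LCA (SE, n = 10 mice at each time), a factor of 11.9, and by 3.87 ± 0.24 in RCA, a factor of 14.6. The 12 h mean in RCA, 4.57, lay under the lowest array median, 4.59, so background may limit the size of that factor.

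Arntl, the activator without which the loop stops, moved the other way. In LCA at 12 h it was 6.57, 5.58, 7.09, 6.06 and 6.33 with atorvastatin and 6.24, 6.08, 5.54, 6.52 and 6.07 with vehicle. In RCA at 12 h it was 6.59, 5.75, 4.79, 7.46 and 6.76 with atorvastatin and 6.69, 5.57, 7.16, 7.28 and 5.89 with vehicle. At 24 h no array of either artery exceeded 4.15, so the 12 h and 24 h ranges did not overlap in LCA or in RCA. The difference was -2.46 ± 0.15 in LCA and -2.62 ± 0.22 in RCA.

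The other 8 genes split along the same line between 12 h and 24 h. Npas2 was lower at 24 h, by -1.64 ± 0.27 log2 units in LCA and -2.93 ± 0.26 in RCA. Clock was lower by about the same amount in the arteries, -1.02 ± 0.18 in LCA and -0.99 ± 0.15 in RCA. Nfil3, the D-box repressor, differed by -1.18 ± 0.18 in LCA and -1.81 ± 0.19 in RCA. Cry1, the inhibitor of the Arntl pair that peaks latest, differed by -1.18 ± 0.24 in LCA and -1.31 ± 0.16 in RCA. On the opposite side, Nr1d2 was higher at 24 h by 1.88 ± 0.21 in LCA and 1.97 ± 0.17 in RCA. Per3 was higher by 1.50 ± 0.29 in LCA and 1.42 ± 0.21 in RCA, and Ciart, another inhibitor of the Arntl pair, by 0.71 ± 0.13 in LCA and 1.15 ± 0.18 in RCA. Per2 differed least, by 0.50 ± 0.26 in LCA and 0.54 ± 0.15 in RCA. The 12 h and 24 h ranges overlapped in each artery for Per2, Per3 and Ciart. They also overlapped in LCA for Npas2 and Cry1 and in RCA for Clock, but in neither artery for Nfil3 and Nr1d2.

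In these first 2 times, then, the 5 genes Arntl, Npas2, Clock, Nfil3 and Cry1 were on the high side at 12 h, and Dbp, Nr1d2, Per2, Per3 and Ciart on the high side at 24 h, in LCA and in RCA. The clock hour of each time point is not known, so hours after surgery and time of day cannot be told apart. The labels speak of 4 extraction and profiling batches without saying which arrays each held, so batch and time cannot be told apart either. The log2 ratio of the 3′ to the 5′ Gapdh control probe sets, which rises with RNA breakdown, had LCA means of 4.87 with atorvastatin and 4.82 with vehicle at 12 h, and 4.56 with atorvastatin and 4.97 with vehicle at 24 h. The RCA means were 4.20 with atorvastatin and 4.74 with vehicle at 12 h, and 4.10 with atorvastatin and 4.04 with vehicle at 24 h, and the part of this ratio in the values was not tested.

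Whether the artery changed the first step was tested as the difference between LCA and RCA within each mouse, at 24 h against 12 h, with limma over all 11341 genes and Benjamini-Hochberg adjustment at 0.05. Since the genes were chosen by their values over time in these same arrays, a call here is not independent of that choice. Across all genes 0.661% passed, and 1 of the 10 clock genes did. That gene was Npas2, whose LCA minus RCA value was 1.28 ± 0.29 higher at 24 h than at 12 h (adjusted p = 0.0312). Its RCA mean at 24 h, 4.54, lay under the lowest array median, 4.59, and so close to background. The other 9 did not pass. In simulated data for this comparison, 13.5% of changes of 0.5 log2 units and 75% of changes of 1 were called. Those shares are for genes drawn from all tested genes and need not hold for the clock genes. The standard errors of the other 9 ran from 0.21 for Clock to 0.30 for Per2, 0.32 for Per3 and 0.47 for Dbp. The Npas2 call was lost when arteries were treated as unpaired (adjusted p = 0.119), when the mean of its 2 probe sets was used (0.60, adjusted p = 0.0624) and without the 2 mice described next (adjusted p = 0.0608). Those were the 12 h vehicle mouse 3 and the 24 h atorvastatin mouse 9, whose RCA arrays held smooth muscle markers at a list mean of 8.61 and 8.11, against medians of 6.22 and 5.97 in RCA at those times.

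**Figure D2:**
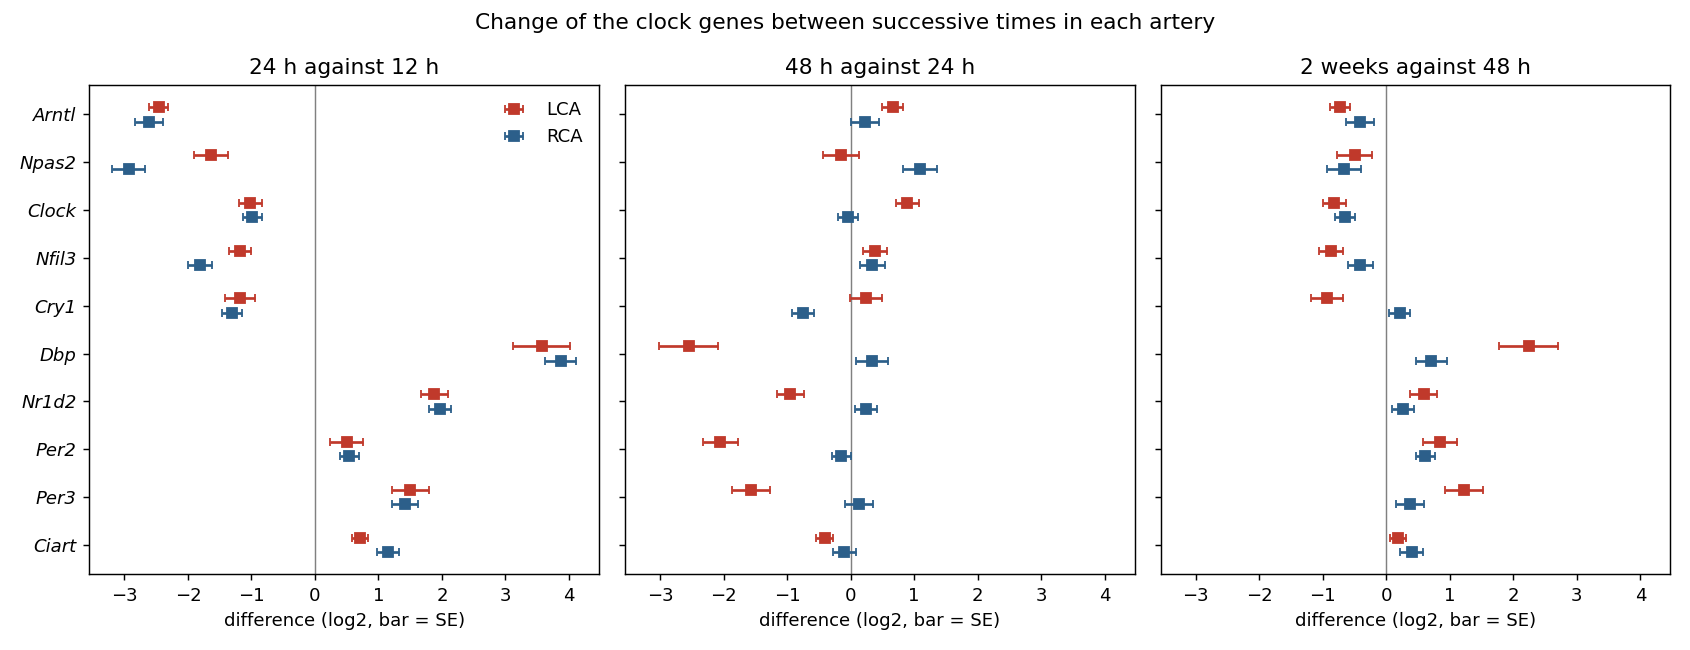
Difference (log2) between successive times for each gene, with LCA in red and RCA in blue; squares are means over treatments and bars are standard errors. At 24 h against 12 h each gene has the same sign in both arteries, with Npas2 at -1.64 in LCA and -2.93 in RCA, and at 48 h against 24 h Dbp sits at -2.55 in LCA and at 0.34 in RCA.

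After 24 h the mean changes of several genes differed between the arteries. In RCA the Dbp, Nr1d2 and Per3 values stayed high, with means of 8.73 ± 0.50, 9.09 ± 0.16 and 7.66 ± 0.34 at 48 h (SD, n = 9). The RCA was not still, since at 48 h against 24 h Npas2 was higher there by 1.09 ± 0.27 and Cry1 lower by -0.75 ± 0.17, with -0.15 ± 0.28 and 0.24 ± 0.25 in LCA. In LCA Dbp, Nr1d2 and Per3 at 48 h averaged 6.08 ± 1.84, 8.22 ± 0.60 and 6.15 ± 1.04. The 48 h mean of Dbp in LCA thus lay 71.2% of the way back between its own 24 h mean and its 12 h mean, while the RCA mean lay 7.6% beyond the 24 h mean on the far side. The same position in LCA was 104.6% for Per3 and 50.9% for Nr1d2. On the Arntl side it was 88.2% for Clock, 31.6% for Nfil3 and 22.6% for Cry1. The RCA positions of these genes were -2.4%, 20.2% and -56.9%, where a negative value lies beyond the 24 h mean. Nfil3 thus changed alike from 24 h to 48 h, by 0.39 ± 0.19 in LCA and 0.34 ± 0.20 in RCA. The Cry1 change in LCA, 0.24 ± 0.25, was within its error. Differences between genes in this measure were not tested. The measure is not given for Arntl and Ciart, whose means at 24 h or 12 h lay under the array medians. The 12 h mean of Dbp in RCA, 4.57, also lay there, so the RCA position of Dbp may be limited by background. For Npas2 the 48 h mean in LCA, 4.95 ± 0.83, was below that of 24 h, 5.11 ± 0.54. Per2 lay off this scale, because its 48 h mean in LCA, 5.06 ± 1.06, was under its means at 12 h (6.65 ± 0.37) and 24 h (7.15 ± 0.45). The Gapdh ratio was also lower in LCA at 48 h, at 3.97 with atorvastatin and 3.95 with vehicle, against the 24 h means given above. In RCA at 48 h it was 3.81 with atorvastatin and 4.33 with vehicle, and its part in these values was not tested.

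The mice at 48 h differed widely in the ligated artery. Dbp in LCA was 4.13, 8.93, 5.55 and 5.45 in atorvastatin mice 6 to 9, against 8.79, 9.38, 9.01 and 9.41 in their RCA. It was 4.37, 7.51, 5.60, 8.67 and 4.51 in the LCA of vehicle mice 1 to 5, against 8.41, 8.42, 8.36, 8.84 and 7.89 in their RCA. Atorvastatin mouse 7 and vehicle mouse 4 kept LCA values within the RCA range, vehicle mouse 2 lay just below it, and the remaining 6 mice were far below, at levels seen at 12 h. The LCA values 4.13, 4.37 and 4.51 lay under the lowest array median, 4.59, so background may limit the size of those differences. Of the 9 LCA arrays, 7 were under the lowest LCA value of 24 h and 2 weeks.

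Per3 sorted the same mice. In LCA at 48 h it was 5.86, 7.68, 5.21 and 6.0 with atorvastatin and 4.99, 7.05, 5.14, 7.59 and 5.82 with vehicle, against 7.94, 7.87, 7.14 and 7.62 and 7.68, 7.55, 7.39, 7.41 and 8.30 in RCA. Arntl in LCA was 4.97, 3.79, 4.66 and 4.38 with atorvastatin and 4.21, 4.58, 4.69, 3.77 and 4.53 with vehicle, so its lowest values belonged to atorvastatin mouse 7 and vehicle mouse 4. In RCA at 48 h Arntl was 4.10, 3.77, 3.81 and 4.10 with atorvastatin and 4.08, 4.37, 4.04, 3.88 and 3.97 with vehicle.

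Markers of blood cells varied across the same mice. The 4 neutrophil markers, S100a8, S100a9, Cxcr2 and Csf3r, were called higher in LCA than in RCA at 48 h (4 of 4), with array means from 3.24 to 9.77 in LCA and from 3.29 to 4.18 in RCA. Their LCA mean was 5.09 in atorvastatin mouse 7 and 3.24 in vehicle mouse 4, the lowest of the 9, and between 7.0 and 9.77 in the other 7, vehicle mouse 2 included at 8.57. The 6 macrophage markers were also called higher (6 of 6), with array means from 5.93 to 7.81 in LCA and from 4.19 to 5.83 in RCA. Of the 8 endothelial markers 3 were called higher and 4 lower. Beside these marker counts, 49.7% of all genes were called in either direction at 48 h. The part of infiltrating cells in the clock values was not tested, and in such bulk RNA fewer cells of a type and less RNA per cell cannot be told apart.

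**Figure D3:**
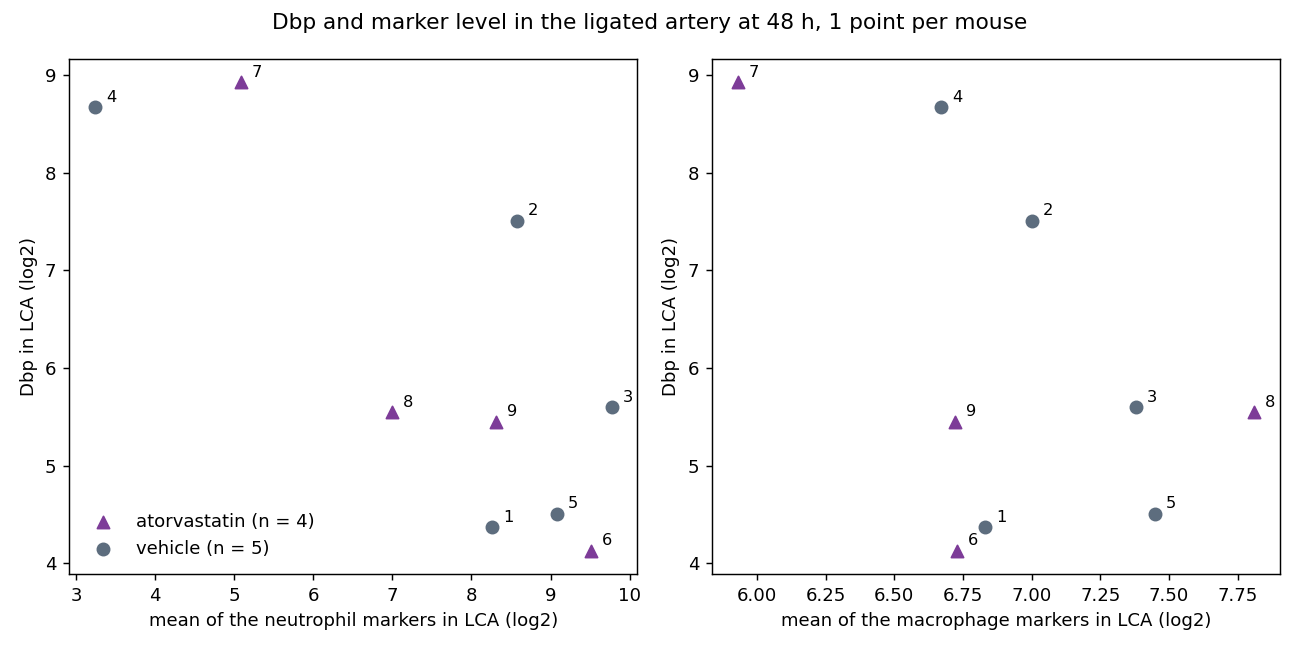
Dbp in LCA at 48 h (log2, vertical axis) against the mean of 4 neutrophil markers (left) or 6 macrophage markers (right) in the same LCA array, 1 point per mouse numbered by replicate. Atorvastatin mouse 7 and vehicle mouse 4 combine the highest Dbp values, 8.93 and 8.67, with the lowest neutrophil means, 5.09 and 3.24.

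The comparison of the arteries within mice was tested at each time. At 12 h, 6.21% of all genes passed and 2 of the 10 clock genes did. Nfil3 was higher in LCA by 0.83 ± 0.17 (limma, adjusted p = 0.00133), with LCA above RCA in 10 of 10 mice. Npas2 was lower in LCA by -0.71 ± 0.20 (limma, adjusted p = 0.0264), in 9 of 10 mice. At 24 h, 28.7% of all genes passed, and again 2 of 10 clock genes did, Nfil3 and Npas2. A count of 2 in 10 was close to that background.

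Nfil3 was the gene with the steadiest difference. At 24 h it was 7.40, 7.85, 7.62, 7.96 and 7.93 in the LCA of atorvastatin mice, against 6.42, 7.17, 6.36, 6.85 and 6.01 in their RCA. In vehicle mice it was 7.33, 7.96, 7.68, 7.52 and 8.04 in LCA, against 5.67, 6.34, 6.70, 5.71 and 5.50 in RCA. The LCA and RCA ranges did not overlap at 24 h, and the difference was 1.46 ± 0.17 (adjusted p = 5.10e-08 with limma), a factor of 2.74. It was 1.50 ± 0.18 at 48 h (adjusted p = 3.00e-08) and 1.05 ± 0.17 at 2 weeks (adjusted p = 3.69e-06), where the ranges again did not overlap. LCA exceeded RCA in each of the 39 mice over the 4 times.

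Npas2 changed the sign of its difference, with some means close to background, such as 4.54 in RCA at 24 h and 4.46 in LCA at 2 weeks. At 24 h it was 4.55, 5.54, 4.66, 6.17 and 5.21 in the LCA of atorvastatin mice, against 4.10, 5.29, 4.42, 5.95 and 3.87 in their RCA. In vehicle mice it was 5.22, 4.43, 5.43, 5.24 and 4.68 in LCA, against 4.06, 4.59, 4.62, 4.13 and 4.33 in RCA. LCA was above RCA in 9 of 10 mice (0.58 ± 0.20, limma adjusted p = 0.0299), whereas at 48 h and 2 weeks it was lower by -0.67 ± 0.21 (adjusted p = 0.00975) and -0.49 ± 0.20 (adjusted p = 0.0457). The other Npas2 probe set correlated with the one used at r = 0.266 over the 78 arrays, and the calls at 12 h, 24 h and 2 weeks did not hold with the mean of both (adjusted p = 0.054, 0.0925 and 0.0599), nor with unpaired arteries (adjusted p = 0.125, 0.107 and 0.139), and that at 48 h was lost with only the groups compared in the fit (adjusted p = 0.0642).

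At 48 h, 49.7% of all genes passed and 9 of the 10 clock genes did, 3 higher and 6 lower in LCA. The median LCA minus RCA difference of the 10 was -0.69 and the median absolute difference 0.94, against -0.00 and 0.33 over all tested genes. The lower genes included the output and Per side, led by Dbp at -2.69 ± 0.35 (limma, adjusted p = 1.55e-07), a factor of 6.47, lower in 9 of 9 mice. Per2 was lower by -1.55 ± 0.23 (adjusted p = 1.10e-06) and Per3 by -1.50 ± 0.24 (adjusted p = 4.23e-06), each in 8 of 9 mice. Nr1d2 differed by -0.85 ± 0.17 and Ciart by -0.71 ± 0.17, with the Npas2 difference given above. The Ciart mean in LCA, 4.01, lay under the lowest array median, 4.59, and so close to background. The errors of these differences pool the spread over all times. The SD of the Dbp differences was 1.69 at 48 h, against 1.25, 0.44 and 0.44 at 12 h, 24 h and 2 weeks. Over the alternative limma fits the highest adjusted p was 0.00378 for Dbp, 0.0126 for Per2, 0.00748 for Per3 and 0.0107 for Nr1d2. The higher genes were Nfil3, Cry1 and Clock. Cry1 was 7.95, 5.28, 7.57 and 7.38 in the LCA of atorvastatin mice and 7.71, 6.95, 8.20, 6.84 and 7.79 in that of vehicle mice, against 6.40, 5.61, 6.51 and 6.43 and 6.25, 5.74, 7.04, 5.75 and 6.64 in RCA. It was therefore above its RCA in 8 of 9 mice, by 1.01 ± 0.17 on average (adjusted p = 9.20e-06). Clock was higher in 9 of 9 mice, by 0.86 ± 0.16 (adjusted p = 2.23e-05). Over the alternative limma fits its difference was between 0.34 and 0.86 and stayed called, so its size is less firm than its direction. The other Clock probe sets correlated with the one used at r = 0.419, 0.715 and 0.427 over the 78 arrays. Arntl did not pass at 48 h, with 0.40 and an adjusted p of 0.119, although LCA exceeded RCA in 8 of 9 mice.

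Per2 at 48 h ran 4.12, 6.20, 6.67 and 4.36 in the LCA of atorvastatin mice, against 6.74, 6.49, 6.91 and 7.34 in RCA. In vehicle mice it was 4.27, 5.20, 4.52, 6.29 and 3.94 in LCA, against 6.25, 6.24, 6.67, 6.0 and 6.90 in RCA. The LCA values of 5 mice lay under the lowest array median, 4.59, and so close to background. Those of atorvastatin mice 7 and 8 and of vehicle mouse 4 lay within the RCA range. Atorvastatin mouse 8 was thus high in Per2 although low in Dbp and Per3.

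**Figure D4:**
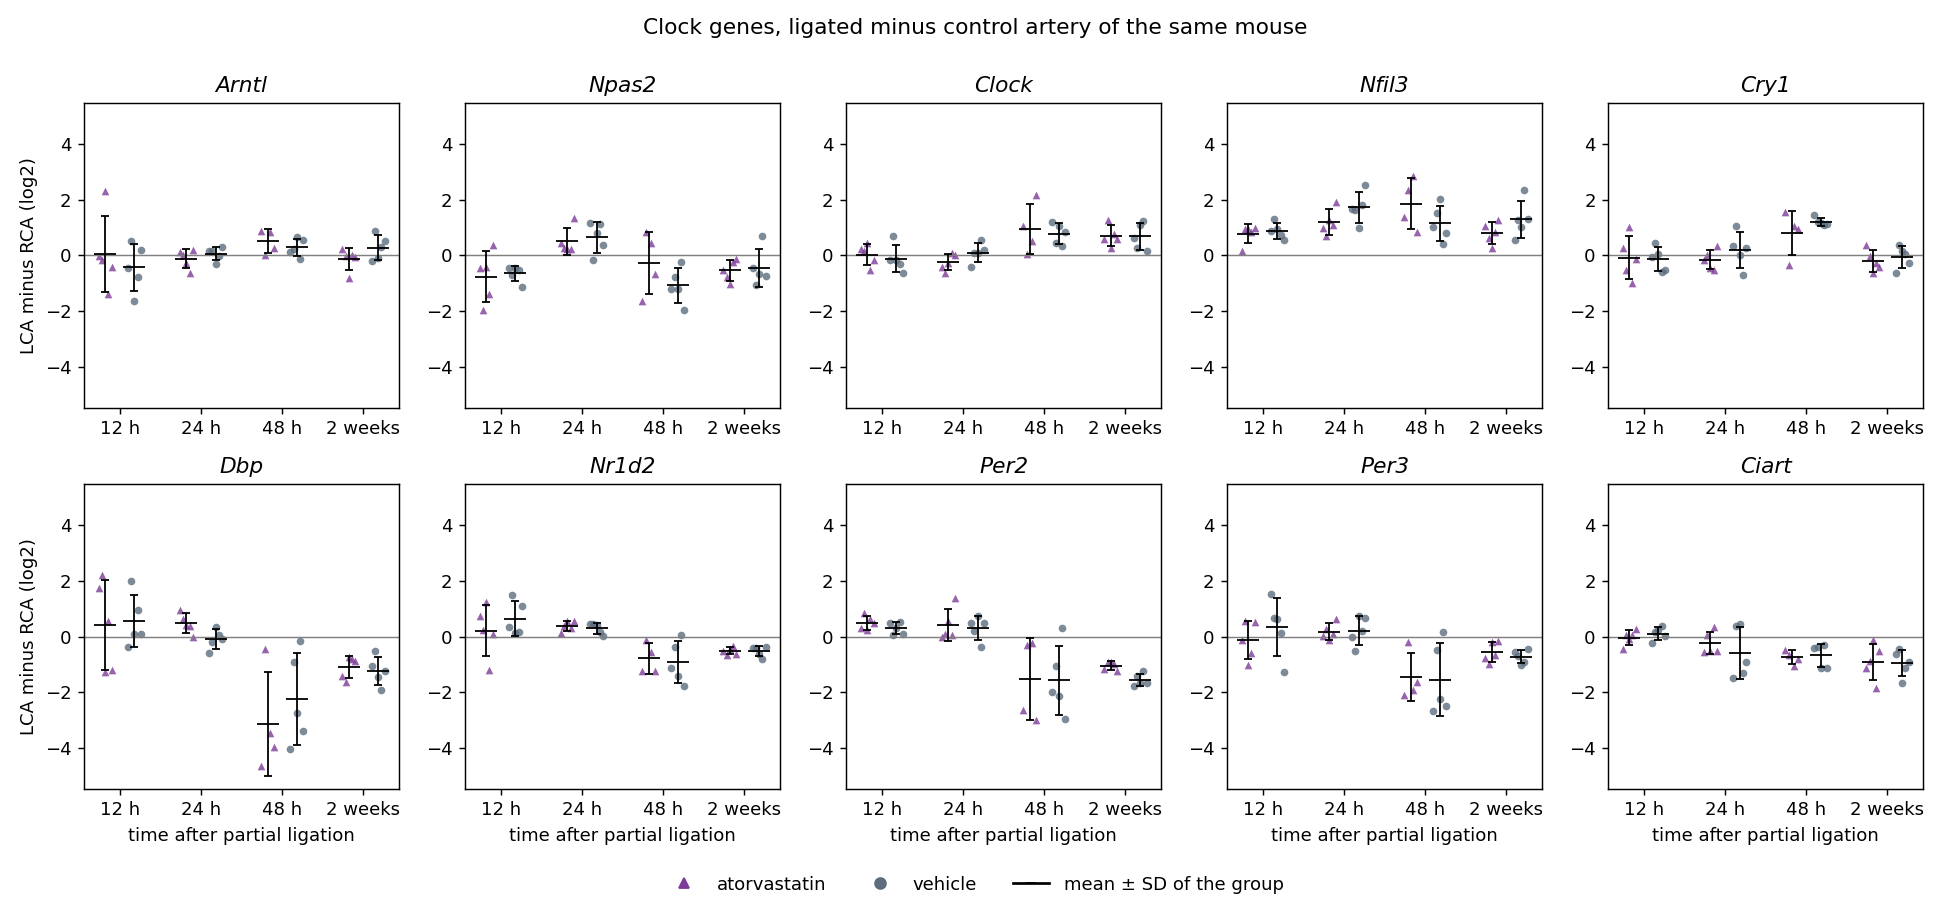
LCA minus RCA (log2, vertical axis) for each mouse at each time (horizontal axis), atorvastatin as purple triangles and vehicle as grey circles, with the group mean ± SD in black. Nfil3 is above 0 in each mouse, and Dbp is below 0 in each mouse at 48 h and 2 weeks, with the widest scatter at 48 h.

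At 2 weeks, 43.5% of all genes passed and 8 of the 10 clock genes did, 2 higher and 6 lower in LCA. The median difference was -0.51, against -0.03 over all tested genes. The spread of the differences between mice was smaller than at 48 h for all of the 10 genes but Ciart and Arntl. Their SD was 0.54 and 0.46, against 0.34 and 0.36 at 48 h, whereas that of Nr1d2 was 0.15 against 0.63. Nr1d2 was 8.89, 8.72, 8.86, 8.86 and 8.75 in the LCA of atorvastatin mice and 8.84, 8.88, 8.68, 8.76 and 8.91 in that of vehicle mice, against 9.40, 9.39, 9.31, 9.21 and 9.38 and 9.25, 9.30, 9.32, 9.56 and 9.30 in RCA. The ranges did not overlap, and the difference was -0.53 ± 0.16 (limma, adjusted p = 0.00818), whose error pools the spread over all times. Dbp was lower in LCA in 10 of 10 mice, at 8.32 ± 0.40 in LCA and 9.48 ± 0.33 in RCA (SD, n = 10), a difference of -1.16 ± 0.33 (limma, adjusted p = 0.00468).

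Among the 10 genes, Per2 had the widest gap at 2 weeks. It was 5.92, 6.11, 6.83, 6.72 and 6.30 in the LCA of atorvastatin mice, against 7.10, 7.0, 7.75, 7.71 and 7.55 in RCA. In vehicle mice it was 5.62, 5.61, 5.22, 5.57 and 5.56 in LCA, against 7.40, 7.04, 6.89, 6.80 and 7.22 in RCA. The difference was -1.30 ± 0.22 (limma, adjusted p = 5.89e-06), lower in 10 of 10 mice. Ciart was lower by -0.93 ± 0.16 and Per3 by -0.64 ± 0.23, each in 10 of 10 mice. The highest LCA value of Ciart, 4.56, lay under the lowest array median, 4.59, so background may limit the size of its difference. Clock was higher by 0.69 ± 0.15 in 10 of 10 mice, and by 0.42 to 0.69 over the alternative limma fits. Arntl and Cry1 did not pass at 2 weeks. Arntl was close to background there, at 3.67 ± 0.21 in LCA and 3.60 ± 0.33 in RCA, and Cry1 was 6.34 ± 0.31 in LCA and 6.47 ± 0.46 in RCA. At that time the LCA also held more of the markers of other cells: 4 of 4 smooth muscle, 6 of 6 macrophage and 4 of 4 T cell markers were called higher, with array means of 6.42 to 10.37, 7.32 to 8.42 and 3.93 to 6.43 in LCA, against 6.13 to 7.23, 3.45 to 6.09 and 3.46 to 5.37 in RCA. Their part in the clock values was not tested.

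Whether the difference between the arteries depended on time was tested as the LCA minus RCA difference at 12 h against its mean at the 3 later times. The genes were chosen by their values over time in these same arrays, so the calls are not independent of that choice. Over all genes 18.9% passed and 6 of the 10 clock genes did. The difference was more positive at 12 h for Dbp (1.70 ± 0.39, limma adjusted p = 0.00193), Per2 (1.23 ± 0.25, adjusted p = 6.72e-04), Nr1d2 (0.77 ± 0.19), Ciart (0.72 ± 0.18) and Per3 (0.76 ± 0.26, adjusted p = 0.04), and more negative for Clock (-0.54 ± 0.17, adjusted p = 0.0241). The call for Per3 was lost with the replicate number as a block (adjusted p = 0.0557) and without the 2 mice with smooth muscle markers (adjusted p = 0.0822). That for Clock was lost with the mean of its probe sets (-0.24, adjusted p = 0.052).

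None of the 10 genes passed the test for atorvastatin. In the mean of both arteries the drug comparison passed for 0.0176% of all genes at 12 h, 0% at 24 h, 0% at 48 h and 0.00882% at 2 weeks, and for 0 of 10 clock genes at each time and over the 4 times together, where the share of all genes was 0%. At an unadjusted p under 0.05 the clock genes numbered 1, 0, 1 and 1 at the 4 times, and 0 over all times. At 12 h, 48 h and 2 weeks the estimate furthest from 0 was that of Per2, with atorvastatin minus vehicle at -0.52 ± 0.21 at 12 h, 0.47 ± 0.22 at 48 h and 0.61 ± 0.21 at 2 weeks. Even that last estimate did not pass, although it was well above its standard error. For Dbp the standard error was between 0.38 and 0.40 at a single time, so changes well above that size could also have been missed.

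Whether the drug altered the difference between the arteries was tested as well. It passed for 0.00882% of all genes at 12 h, 0% at 24 h, 0% at 48 h and 0.0176% at 2 weeks, and for 0 of 10 clock genes at each time, also at an unadjusted p under 0.05. The largest estimates were for Dbp at 48 h, -0.88 ± 0.71, and for Npas2 at 48 h, 0.81 ± 0.43. With standard errors of that size these data do not show that the drug left the clock genes alike.

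Of 11 further clock genes listed, 7 could be tested: Per1, Cry2, Rora, Arntl2, Bhlhe40, Tef and Hlf. Tef and Hlf are D-box activators related to Dbp, Rora activates Arntl through ROR elements, and Bhlhe40 is an E-box repressor. In RCA at 24 h against 12 h, 24.2% of all genes passed and 6 of these 7 rose, by 0.45 ± 0.11 (Tef) to 1.27 ± 0.16 (Bhlhe40), with Arntl2 at -0.22 ± 0.25. In LCA, where 1.56% passed, 2 of 7 rose, Hlf by 1.33 ± 0.20 and Bhlhe40 by 1.10 ± 0.20 (limma, adjusted p = 8.55e-05 and 0.00107). The estimates of the other 5 in LCA were also positive, between 0.50 for Tef and 0.59 for Arntl2. The error of each artery's fit covers all times, and LCA values spread widely at 48 h, with an SD of 0.97 for Tef against 0.14 at 24 h. With only the groups compared in the fit the LCA count was 4 of 7, so the counts of the arteries are not directly comparable.

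After 24 h the further clock genes were tested in each artery in turn. In LCA at 48 h against 24 h, 47.4% of all genes passed and 4 of 7 fell: Tef by -1.78 ± 0.23, Rora by -1.66 ± 0.27, Hlf by -1.39 ± 0.20 and Cry2 by -1.04 ± 0.29. In RCA, where 1.12% passed, 0 of 7 did, with 2 at an unadjusted p under 0.05. At 2 weeks against 48 h, 34.2% passed in LCA and 3 of 7 rose, Tef (0.90 ± 0.23), Per1 (0.90 ± 0.29) and Rora (0.83 ± 0.27). In RCA 0.459% passed and 0 of 7 did, with 2 at an unadjusted p under 0.05.

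Set against RCA in the same mice, most of these genes were lower in LCA at 48 h and 2 weeks. Bhlhe40 was lower at each of the 4 times, by -0.76 ± 0.16, -0.93 ± 0.16, -0.60 ± 0.17 and -1.11 ± 0.16 from 12 h to 2 weeks. At 24 h, when 28.7% of all genes passed, Arntl2 (0.66 ± 0.20), Hlf (0.70 ± 0.16) and Tef (0.45 ± 0.17) were higher and Per1 (-0.61 ± 0.21) lower. At 48 h, 6 of 7 were lower and 0 higher, beside 49.7% of all genes called in either direction, among them Rora by -1.66 ± 0.23, Tef by -1.53 ± 0.18 and Cry2 by -1.48 ± 0.22 (limma, adjusted p = 3.81e-07, 3.01e-08 and 1.77e-06). These errors also pool all times, and the SD of the Rora differences was 1.29 at 48 h against 0.24 at 24 h. At 2 weeks the count was again 6 of 7 lower, beside 43.5% of all genes called, with Hlf at -1.48 ± 0.16 and Cry2 at -1.46 ± 0.21, and Arntl2 did not pass at either of these times.

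Genes that act on clock proteins or respond to them were counted in the same fits. Of 9 tested genes that modify clock proteins, LCA minus RCA passed for 0 at 12 h (0 also at an unadjusted p under 0.05), 2 at 24 h, 2 at 48 h and 3 at 2 weeks, beside 6.21%, 28.7%, 49.7% and 43.5% of all genes at these times. Among them Timeless, a replication fork protein, was higher at 48 h by 0.39 ± 0.12 and lower at 2 weeks by -1.10 ± 0.12. Of 5 clock-controlled outputs, 4 passed at 48 h, 3 higher and 1 lower, beside 49.7% of all genes, and 4 at 2 weeks, 1 higher and 3 lower, beside 43.5%. Cdkn1a, the cell-cycle inhibitor p21, was lower at 12 h by -1.28 ± 0.25 and higher at 48 h by 1.26 ± 0.27, and Wee1, a mitotic brake, was higher at 48 h by 0.43 ± 0.16 and lower at 2 weeks by -0.77 ± 0.15. Glucocorticoids set peripheral clocks, and of 7 glucocorticoid-responsive genes 7 passed at 48 h, 3 higher and 4 lower, beside 49.7% of all genes. Tsc22d3 was lower by -1.88 ± 0.16, Zbtb16 by -1.82 ± 0.26 and Klf9 by -1.38 ± 0.18, whereas Fkbp5 was higher by 0.95 ± 0.17 (limma, adjusted p = 7.87e-11, 5.33e-07, 1.98e-07 and 2.63e-05). The genes of that list therefore did not share a direction.

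Over the 16 group means the clock genes formed opposed sides. As a description over 16 points that share mice between arteries, Pearson's r of Arntl was 0.92 with Npas2, 0.9 with Cry1 and 0.84 with Clock, and it was -0.97 with Nr1d2 and -0.93 with Dbp. Dbp had 0.97 with Nr1d2 and 0.96 with Per3, but 0.45 with Per2, and Per2 had -0.18 with Arntl.

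The 5 other genes whose group means were most like those of Arntl were Gldc (r = 0.942), Acot9 (0.92), Ripor2 (0.913), Mospd2 (0.911) and Acot10 (0.895). Acot9 and Acot10 are near-identical copies, so their probe sets may share signal. The 5 most like Dbp were Sphk2 (r = 0.997), Zfp740 (0.939), Hexa (0.938), Glg1 (0.93) and Wdfy3 (0.923). In GRCm38.p6, Sphk2 lies at chr7:45709463-45718002 and Dbp at chr7:45705100-45710203, so their annotated spans share 741 bases, and the Sphk2 values cannot be told apart from Dbp signal.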

How the data were processed

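Per the submitters' processing notes, the authors normalized the arrays with RMA, and the deposited values are log2 expression values of 45118 probe sets on 78 arrays; the software version is not given in the sources used here. RMA gives arrays a common distribution and compresses low signals, so a shift of most genes would not be seen, and the number of arrays limits the precision. After 81 control probe sets, 28898 probe sets had 1 symbol, 551 several and 15588 none in the platform annotation of the array.

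For each mouse, its LCA minus RCA difference and the average of its arteries entered limma 3.58.1 in R 4.3.3 over 8 groups of treatment and time, and RCA and LCA values were fitted separately for changes over time; estimates weight treatments equally. The error of each estimate pools the spread over all groups of its fit, and so over all 4 times. Benjamini-Hochberg adjustment covered all 11341 tested genes. The fits were tested on simulated data: of 200 genes changed by 1 log2 unit in LCA minus RCA at 48 h among 11341, 89% were called, and 43% of those changed by 0.5; for 24 h against 12 h these shares were 75% and 13.5%. Pairing comes from the labels, which place both arteries in 1 mouse; deviations of the arteries of a mouse from their group means correlated at a median r of 0.088, against -0.022 for different mice.

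The members and the gene lists were chosen with earlier results of these data known. Named genes are the 10 members, called members of the further clock list, up to 4 called members of each other list, and the 5 genes most like Arntl and the 5 most like Dbp over 16 group means. Alternatives were another normalization, 2 other filters, mean of probe sets, unpaired arteries, fewer groups in the fit, the title code number as a random block, the replicate number as a block, leaving out each mouse and, added after seeing the data, leaving out 2 mice with smooth muscle markers.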

Additional observations from a re-analysis of the deposited data

Results flagged for a closer look

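In 13 of 160 groups of 4 or 5 arrays, 1 array lay far from the others; chance alone gives about 1 in 20. In the LCA these were Clock at 12 h in atorvastatin mouse 9 (8.33, against 8.65 to 8.77 in the others) and at 24 h in vehicle mouse 1 (7.21), Nfil3 at 12 h in vehicle mouse 3 (8.40, against 8.95 to 9.04), Per2 at 12 h in atorvastatin mouse 10 (5.82), at 24 h in vehicle mouse 4 (6.69) and at 2 weeks in vehicle mouse 3 (5.22), and Per3 at 2 weeks in atorvastatin mouse 8 (7.66). In the RCA they were Arntl at 2 weeks in atorvastatin mouse 8 (4.27, against 3.47 to 3.68), Cry1 at 12 h in vehicle mouse 4 (8.79) and at 48 h in atorvastatin mouse 7 (5.61, against 6.40 to 6.51), Nr1d2 at 24 h in vehicle mouse 5 (9.31) and at 2 weeks in vehicle mouse 4 (9.56), and Ciart at 12 h in atorvastatin mouse 9 (4.38).

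The LCA minus RCA difference passed a test of change with time for 7 genes, counted over both comparisons that follow. At 12 h against the mean of later times, where 18.9% of all genes passed, it was 1.70 for Dbp, 1.23 for Per2, 0.77 for Nr1d2, 0.76 for Per3, 0.72 for Ciart and -0.54 for Clock. At 24 h against 12 h, where 0.661% of all genes passed, it was 1.28 for Npas2. The calls for Per3, Clock and Npas2 were lost under some alternatives.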

How the results depend on the processing

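Among the results called in the main fit, no direction reversed under any alternative run, and directions of results not called were not compared. The count of clock genes called in LCA minus RCA at 12 h, 2 in the main result, was 1 with the mean of all probe sets and 1 with unpaired arteries (no replicate block), and 1 to 2 leaving out each mouse. At 24 h it was 1 to 3 leaving out each mouse, at 48 h 8 to 9, at 2 weeks 6 to 8, and for 12 h against later times 4 to 8. For 24 h against 12 h the count of 1 became 0 with the mean of probe sets, 0 with no replicate block, 0 without the 2 mice with smooth muscle markers, and 0 to 1 leaving out each mouse. Of the further clock genes, the count in RCA at 2 weeks against 48 h was 0, but 1 with a second quantile normalization, 1 with only the groups compared and 0 to 1 leaving out each mouse; in LCA at 24 h against 12 h it was 4 in place of 2 with only the groups compared; and in LCA at 2 weeks against 48 h it was 1 to 3 leaving out each mouse, with 1 without atorvastatin mouse 6 of 48 h. The counts for atorvastatin were 0 under each alternative run. With the replicate number as a block, Per3 at 12 h against later times lost its call (0.73, adjusted p = 0.0557), and no other of the calls in comparisons between times was lost; this block was not run for the differences within a time.

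Npas2 was called least firmly. Its call was lost without any 1 of 4 mice at 12 h (vehicle 2 and 5, atorvastatin 7 and 9; -0.70 to -0.56) and of 4 at 24 h (vehicle 1, 3 and 4, atorvastatin 10; 0.47 to 0.56), without atorvastatin mouse 6 at 48 h (-0.44) and without any 1 of 7 at 2 weeks (vehicle 1, 2, 3 and 5, atorvastatin 6, 7 and 8; -0.50 to -0.42). Per3 at 2 weeks lost its call without atorvastatin mouse 7 (-0.58, adjusted p = 0.054), and at 12 h against later times without any 1 of 14 of 39 mice (0.61 to 0.78); Clock lost that call without any 1 of 3. The causes were not tested. Arntl and Ciart were near background on most arrays, and Npas2, Dbp and Per2 on some, so falls below it would not be seen.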
